A study of Mus musculus with 18 samples.

Results

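The comparison set out here is a difference of differences between a pair of mouse tissues: the change from control to day 2 of ischemic injury in brain cortex, minus the same change in skull. It drew on 12 of the 18 libraries of the study, 3 in each of 4 groups, and on every gene that passed a filter on low counts, which were 18863 of the 25918 gene names in the count table. All animals were of the BALB/c strain. The cortex groups, labelled brain cortex, were a control group and a group taken on day 2 of ischemic injury. The skull groups were a control group and a day 2 group of interparietal bone, a flat bone at the back of the skull roof. Per the labels, the pieces taken held the ischemic region and its surroundings, and polyadenylated RNA was read as paired 150-base reads. The labels give neither age nor sex, nor how the injury was made or what the control animals underwent. They also do not say whether libraries of the 2 tissues with the same number came from 1 mouse. The other 6 libraries, cortex on day 6 and skull on day 4, are used only where named.

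In ischemic cortex, neurons lose their blood supply, resident microglia and astrocytes change their gene expression, and neutrophils and monocytes come in from the blood. The skull is made of mineralised bone with marrow spaces, where granulocytes, monocytes, B cells and red cells are made, and it lies against the meninges that wrap the brain. A positive difference means that a gene moved further up, or less far down, in cortex than in skull. It can therefore come from a rise in cortex, a fall in skull, or both, and the response of each tissue is given beside it.

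Levels are given as CPM, read counts scaled to a common library size with the trimmed mean of M-values (TMM) factors of the 12 libraries, and changes as log2 fold changes from edgeR's quasi-likelihood fit. A gene was called at a Benjamini-Hochberg adjusted p under 0.05 over all genes tested. "Higher" and "lower" below mean a called difference of responses, cortex minus skull.

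Total counts ran from 17199036 to 27654269 in cortex and from 13398631 to 15382973 in skull. The tissue labels were checked against marker lists. Osteoblast genes summed to 47609 to 98244 CPM in skull controls and to 139 to 164 CPM in cortex controls, and genes of red cells and haem synthesis to 16766 to 21011 and 333 to 385 CPM. Excitatory neuron and synaptic genes summed to 15747 to 18901 CPM in cortex controls, but also to 1215 to 1843 CPM in skull controls, so the skull libraries were not free of neuronal transcripts. All 16 members of that neuronal list had counts in every skull library. Within the skull day 2 group the libraries differed among themselves. Red cell genes summed to 11201, 6725 and 1989.7 CPM in replicates 1, 2 and 3. Choroid plexus genes, which mark the secretory epithelium of the brain's ventricles, summed to 525, 11652 and 2854 CPM in the same order, against 374 to 447 CPM in skull controls. Interferon-stimulated genes summed to 797, 836 and 2244 CPM, so that replicate 3 stood apart. The mitochondrial share of counts was 5.35% to 6.37% in cortex, 5.70% to 5.95% in skull controls and 3.99% to 4.54% in skull on day 2. In whole-tissue RNA, fewer cells of a type and less RNA per cell cannot be told apart.

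**Figure D1:**
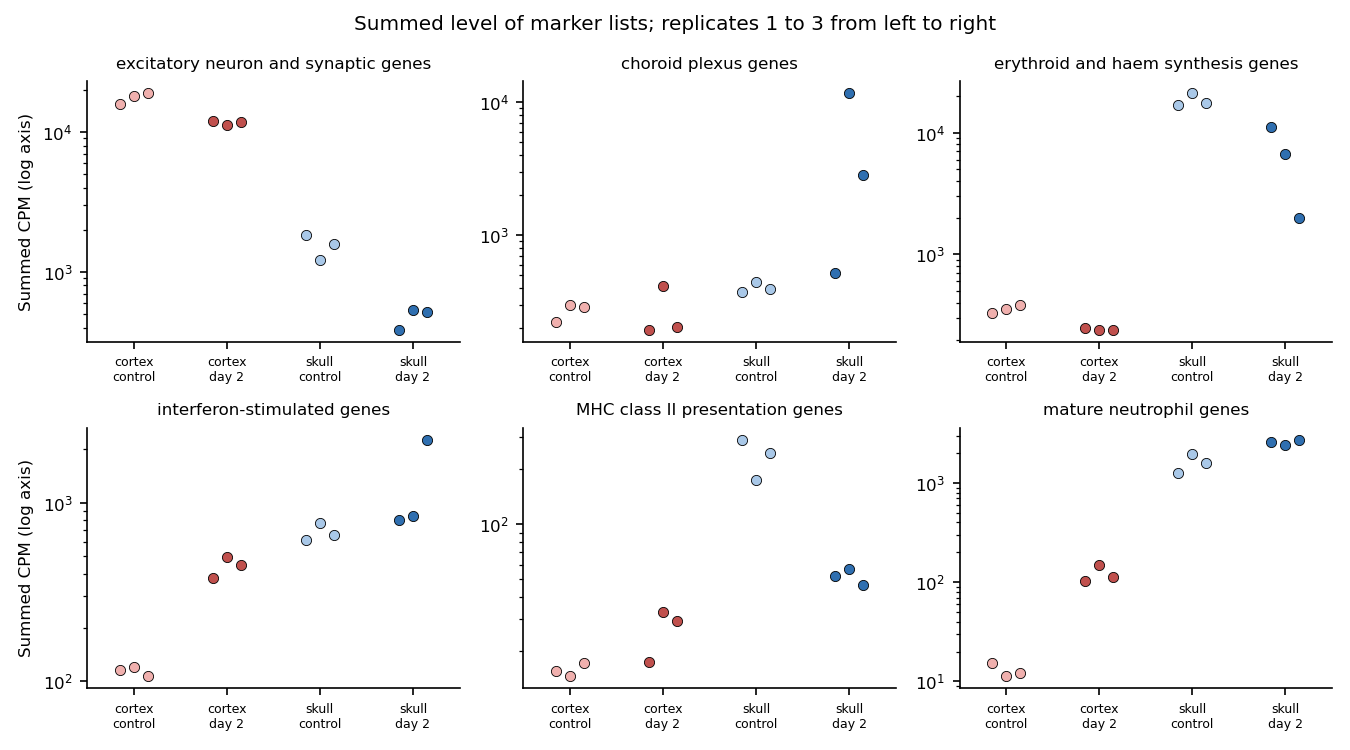
Summed CPM (log axis) of 6 marker lists in each of the 12 libraries; each point is 1 library, with replicates 1 to 3 from left to right in each group. Neuronal genes were present in skull controls at 1215 to 1843 CPM, and in skull on day 2 the choroid plexus sums spread from 525 to 11652 CPM.

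The change from control to day 2 differed between the 2 tissues for 3313 of 18863 genes (17.6%), of which 2633 (14%) were higher and 680 (3.6%) lower. As the treatment of the controls is not given, effects of the injury and of the procedure cannot be told apart. Without an adjustment for multiple testing, 6109 genes had a p under 0.05. A called difference of at least 2-fold was found for 2003 genes in the higher and 187 in the lower direction. Control and day 2 libraries did not overlap for 38.6% of genes in cortex and for 45.8% in skull, the background for each statement on overlap below. In cortex alone 3658 genes (19.4%) responded, 2774 up (14.7%) and 884 down (4.69%), and in skull alone 5789 (30.7%), 2307 up (12.2%) and 3482 down (18.5%). The median difference over all genes tested was 0.20, with a median cortex response of 0.01 and a median skull response of -0.09. Higher genes were 79.5% of all calls, a share that the choice of genes and scaling moved. It was 66.6% among genes expressed in both tissues (2194 higher, 1099 lower), 66.3% without genes that stood far higher in cortex controls than in skull controls (1963 and 998) and 63.6% when all 18 libraries were fitted (2548 and 1458). The median difference of all genes was then 0.06, 0.07 and 0.08 in place of 0.20, so the differences below are read against 0.20.

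Higher genes came from the responses of both tissues. Of the 2633, 979 had risen in cortex with no called response in skull, 1069 had fallen in skull with no called response in cortex, 270 had risen in both, 177 had risen in cortex and fallen in skull, 55 had fallen in both and 83 had no called response in either. The 680 lower genes came mostly from skull: 447 had risen there with no called response in cortex, 119 had fallen in cortex alone, 38 had fallen in cortex and risen in skull, 27 had risen in both and 49 had no called response in either. Across genes, which are not independent replicates, the log2 responses of the 2 tissues were related with a Pearson r of 0.32 and a Spearman coefficient of 0.37.

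**Figure D2:**
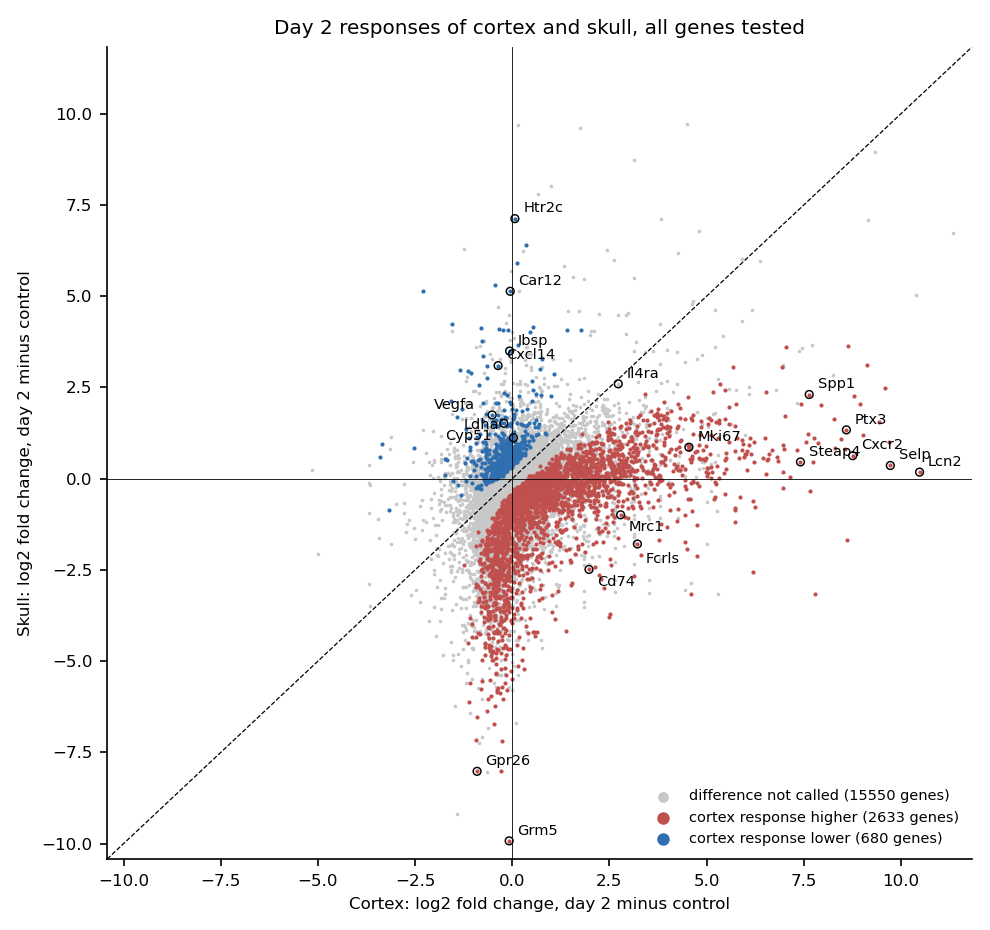
Each point is 1 of 18863 genes, placed by its log2 fold change in cortex (x axis) and in skull (y axis), day 2 against control; the dashed line marks equal responses. The 2633 higher genes (red) lie along the right arm, such as Lcn2, and along the lower arm, such as Grm5, and the 680 lower genes (blue) lie mostly above 0 on the skull axis.

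Among genes whose mean reached 5 CPM in both tissues, at control or on day 2, the largest difference in the higher direction was that of Lcn2, which encodes lipocalin 2, a protein that withholds iron from bacteria and is made by neutrophils and reactive astrocytes (mm10, chr2:32384633-32388252). Its level was 0.298, 0 and 0.0846 CPM in the 3 cortex controls and 118, 285 and 154 CPM in the 3 cortex libraries of day 2. In skull it stood at 61.6, 181 and 112 CPM in controls and 157, 138 and 108 CPM on day 2. Cortex thus went from almost none to levels as high as those of skull, while the skull groups overlapped. The difference was 10.30 ± 0.88 (SE, adjusted p = 6.93e-05). Steap4, a metalloreductase of inflamed tissue, had the same form. It was at 0.213, 0.0757 and 0.55 CPM in cortex controls and 35.5, 61.6 and 46.4 CPM in cortex on day 2, against 75.7, 72.4 and 74 CPM in skull controls and 98.6 to 107 CPM in skull on day 2. The skull groups of Steap4 did not overlap, yet the skull response of 0.46 was not called (adjusted p = 0.155), and the difference was 6.96 ± 0.44 (SE, adjusted p = 6.69e-06). Ptx3, a soluble pattern recognition protein of the pentraxin family, rose in both tissues. Its CPM went from 0.256, 0.0757 and 0 to 38.5, 48.9 and 47.4 in cortex and from 60.1, 23.8 and 44.6 to 121, 105 and 98.5 in skull, with no overlap in either tissue. The rise was steeper in cortex, by 7.26 ± 0.65 (SE, adjusted p = 7.33e-05). Grm5 and Gpr26, also among the 12 largest higher differences, are neuronal genes and are described with the neuronal list.

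The other genes in that group of 12 include genes of leukocyte entry and myeloid cells. Ranking by log2 difference favours genes that cortex controls hardly express. Selp, Cxcr2, Slfn4 and Il1rn, for instance, passed the 5 CPM minimum in cortex only through day 2. The make-up of the group is therefore a description and no result. Selp encodes P-selectin, the adhesion molecule by which activated endothelium and platelets catch rolling leukocytes. It had no count in any cortex control and 4.64, 5.8 and 7.18 CPM on day 2, which is at least 144-fold higher against a floor of 3 counts over the control group. Skull held 9, 13.1 and 11.2 CPM in controls and 11.8, 13.7 and 17.4 CPM on day 2, groups that overlapped. Cxcr2, the chemokine receptor that guides neutrophils, had 1 count in all cortex controls and 497 on day 2, a ratio of 659 with a 95% counting interval of 118 to 26084. Its skull level was 14.8, 32.3 and 27.5 CPM in controls and 36.2, 36.8 and 42.5 CPM on day 2, where the groups did not overlap but the response of 0.63 was not called (adjusted p = 0.0992). The fitted difference was 8.13, adjusted p = 4.39e-05, and its size depends on that single control count. Ccl12, a monocyte-attracting chemokine, went from 0.128, 0 and 0.0423 to 19.8, 20.3 and 17.7 CPM in cortex and from 1.28, 2.96 and 2.29 to 3.52, 6.47 and 10.3 CPM in skull. On day 2 every cortex library lay above every skull library, and the difference was 6.65 ± 0.80 (SE, adjusted p = 0.000284). Il1rn, the natural antagonist of the interleukin 1 receptor, had no count in cortex controls and 2.91, 5.85 and 7.13 CPM on day 2, at least 130.4-fold higher. Skull Il1rn rose from 3.83, 5.09 and 4.07 to 21.2, 18.2 and 32.9 CPM. The fitted difference of 7.11 (adjusted p = 0.00179) is no bound, and its call was lost when all 18 libraries were fitted together (adjusted p = 0.0653). The other 3 were the myeloid genes Slfn4, Cd300lf and Lilr4b, with fitted differences of 7.89, 6.88 and 6.65. Lilr4b, an inhibitory receptor, went from 0.341, 0 and 0.169 to 27.8, 40.3 and 42.9 CPM in cortex and from 22.5, 45.1 and 32.5 to 70.1, 70.9 and 74.8 CPM in skull, so that its day 2 levels in skull were still the higher ones. Slfn4, of the schlafen family, had 2 counts in cortex controls and 1313 on day 2, a ratio of 871 with a counting interval of 241 to 7196. These belong to families with near-identical copies, and how reads shared by copies were counted is not given in the sources used here, so their values, and those of the H2 genes below, are uncertain. The call of Slfn4 was lost with limma voom (adjusted p = 0.0992).

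Over the list of 24 cytokines and chemokines tested, 12 were higher and none lower, with a median difference of 3.36 against 0.20 over all genes. Many of them rose in both tissues, 21 of the 24 in cortex (median 4.83) and 15 in skull (median 1.67). Tnf, a master inflammatory cytokine, had no count in cortex controls and 2.07, 2.69 and 2.52 CPM on day 2, at least 59.7-fold higher, while its skull response of 1.10 was not called (adjusted p = 0.0851). Cxcl16, a membrane-bound chemokine and scavenger receptor, rose in cortex by 3.06, and stood at 20.3, 24.9 and 23.2 CPM in skull controls and 17.9, 18 and 18.3 CPM on day 2 in skull (difference 3.39 ± 0.30 SE, adjusted p = 4.29e-05). Ccl9 rose in both tissues, from 0.213, 0 and 0.169 to 13.9, 21.6 and 15.1 CPM in cortex and from 24.7, 67.5 and 44 to 148, 131 and 168 CPM in skull (5.31 ± 0.74 SE, adjusted p = 0.00108). Not every cytokine leaned to cortex. Il6, Il11 and Cxcl5 rose in both tissues with differences of -2.00, -1.54 and -1.75, which were not called (adjusted p = 0.515, 0.158 and 0.144). Of 21 cytokine receptors and feedback inhibitors, 13 were higher and none lower (median 1.15); 1 was lower without cortex day 2 replicate 1 or skull control replicate 1. Among them were the tumour necrosis factor receptors Tnfrsf1a (2.06) and Tnfrsf1b (2.49), the oncostatin M receptor Osmr (1.96) and the NF-kappaB regulator Bcl3 (3.49). Il4ra, the receptor chain for interleukins 4 and 13, was not among them and is described with the shared responses.

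Among 16 acute phase and iron-binding genes, 7 were higher and 1 lower. The median difference was 2.54, or 2.20 when genes without counts in a group were set to the floor. Cp, the copper-carrying ferroxidase ceruloplasmin, went from 19.4, 14.6 and 13.3 to 108, 143 and 145 CPM in cortex and from 234, 289 and 242 to 359, 363 and 465 CPM in skull, rising in both and further in cortex (2.43 ± 0.24 SE, adjusted p = 8.06e-05). The exception was Slc39a14, a zinc and iron importer. It rose from 32.4, 30.2 and 42.3 to 59.7, 80.2 and 68.8 CPM in cortex but from 87.7, 85.2 and 85.9 to 395, 382 and 475 CPM in skull, a difference of -1.28 ± 0.20 (SE, adjusted p = 0.00161). Of 16 Toll-like receptors and their adaptors, 11 were higher (median 1.47) and none lower. Tlr2, which senses bacterial lipoproteins, rose in cortex from 2.22, 1.44 and 0.423 to 21.3, 32.9 and 29.8 CPM, above the 14.7, 15.3 and 17.8 CPM of skull on day 2. Of 13 leukocyte adhesion molecules, 10 were higher, including Icam1 (3.47), the endothelial ligand for leukocyte integrins.

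Genes of mature neutrophils read differently on the log2 and the CPM scale. Of 16 tested, 11 were higher and none lower, with a median difference of 4.50, or 3.83 at the floor. Summed over the list, cortex spanned 11.2 to 15.4 CPM in controls and 103 to 150.4 CPM on day 2, and skull 1267 to 1979 and 2414 to 2722 CPM. S100a9, a calcium-binding protein that fills the neutrophil cytoplasm, went from 0.981, 0.492 and 0.381 to 29.3, 30.2 and 24.5 CPM in cortex and from 540.3, 889 and 725 to 1016, 1069 and 1089.6 CPM in skull. In neither tissue did its groups overlap, but the skull response of 0.56 was not called (adjusted p = 0.0629). On the log2 scale the cortex response was higher by 4.94 ± 0.35 (SE, adjusted p = 1.52e-05). In CPM the mean gain was 27.4 in cortex and 340.3 in skull. S100a8, its partner, and Mmp8, a neutrophil collagenase, likewise had log2 differences of 4.80 and 4.91 and mean gains of 8.78 and 2.29 CPM in cortex against 194 and 9.51 CPM in skull, where neither response was called. Over all 2633 higher genes, 786 gained more CPM in skull than in cortex, whereas 4 of the 680 lower genes gained more CPM in cortex than in skull. Precursor granule genes are transcribed in marrow before neutrophils leave it. Of 14 tested, 2 were higher, Lcn2 and Chil3, against 14% of all genes. The median difference of this list was 0.86, and the median at the floor was 0.20. Mpo, the myeloperoxidase of early granules, had no count in cortex controls and 0.168, 0.0518 and 0.165 CPM in cortex on day 2, against 81.5, 79.5 and 64.1 CPM in skull on day 2.

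Monocyte genes followed the same course, 11 of 15 higher and none lower (median 3.90). Ccr2, the receptor by which inflammatory monocytes leave marrow, went from 0.938, 0.871 and 0.338 to 15.3, 25.3 and 20.8 CPM in cortex and from 37.4, 42.8 and 39.4 to 76.7, 72.7 and 76.8 CPM in skull. It rose in both tissues, and further in cortex by 3.90 ± 0.34 (SE, adjusted p = 4.26e-05). Lyz2, the lysozyme of myeloid cells, reached 137, 252 and 194 CPM in cortex from 10.4, 9.81 and 9.01 CPM. Its skull groups, 697, 758 and 703 CPM in controls and 895, 994 and 634 CPM on day 2, overlapped, and its difference was 4.10 ± 0.30 (SE, adjusted p = 1.59e-05). Of 20 phagocyte and lipid-handling genes, 18 were higher and 1 lower (median 2.12). Spp1, the secreted phosphoprotein osteopontin of bone and of activated macrophages, went from 3.45, 2.95 and 3.72 to 473, 725 and 827 CPM in cortex and from 2192, 1431 and 1909 to 7941, 7139 and 12306 CPM in skull. The log2 difference was 5.34 ± 0.38 (SE, adjusted p = 1.52e-05), while the mean gain was 672 CPM in cortex and 7284 CPM in skull. Msr1, a scavenger receptor of macrophages, rose from 0.256, 0.114 and 0.0846 to 66.7, 77.4 and 65.7 CPM in cortex and from 6.66, 19.2 and 11.5 to 58.6, 60.4 and 60.9 CPM in skull, so that on day 2 cortex lay slightly above skull (6.54 ± 0.56 SE, adjusted p = 4.94e-05). The lower member was Fabp5, a fatty acid carrier (-0.81 ± 0.20 SE, adjusted p = 0.0179), which rose in both tissues.

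**Figure D3:**
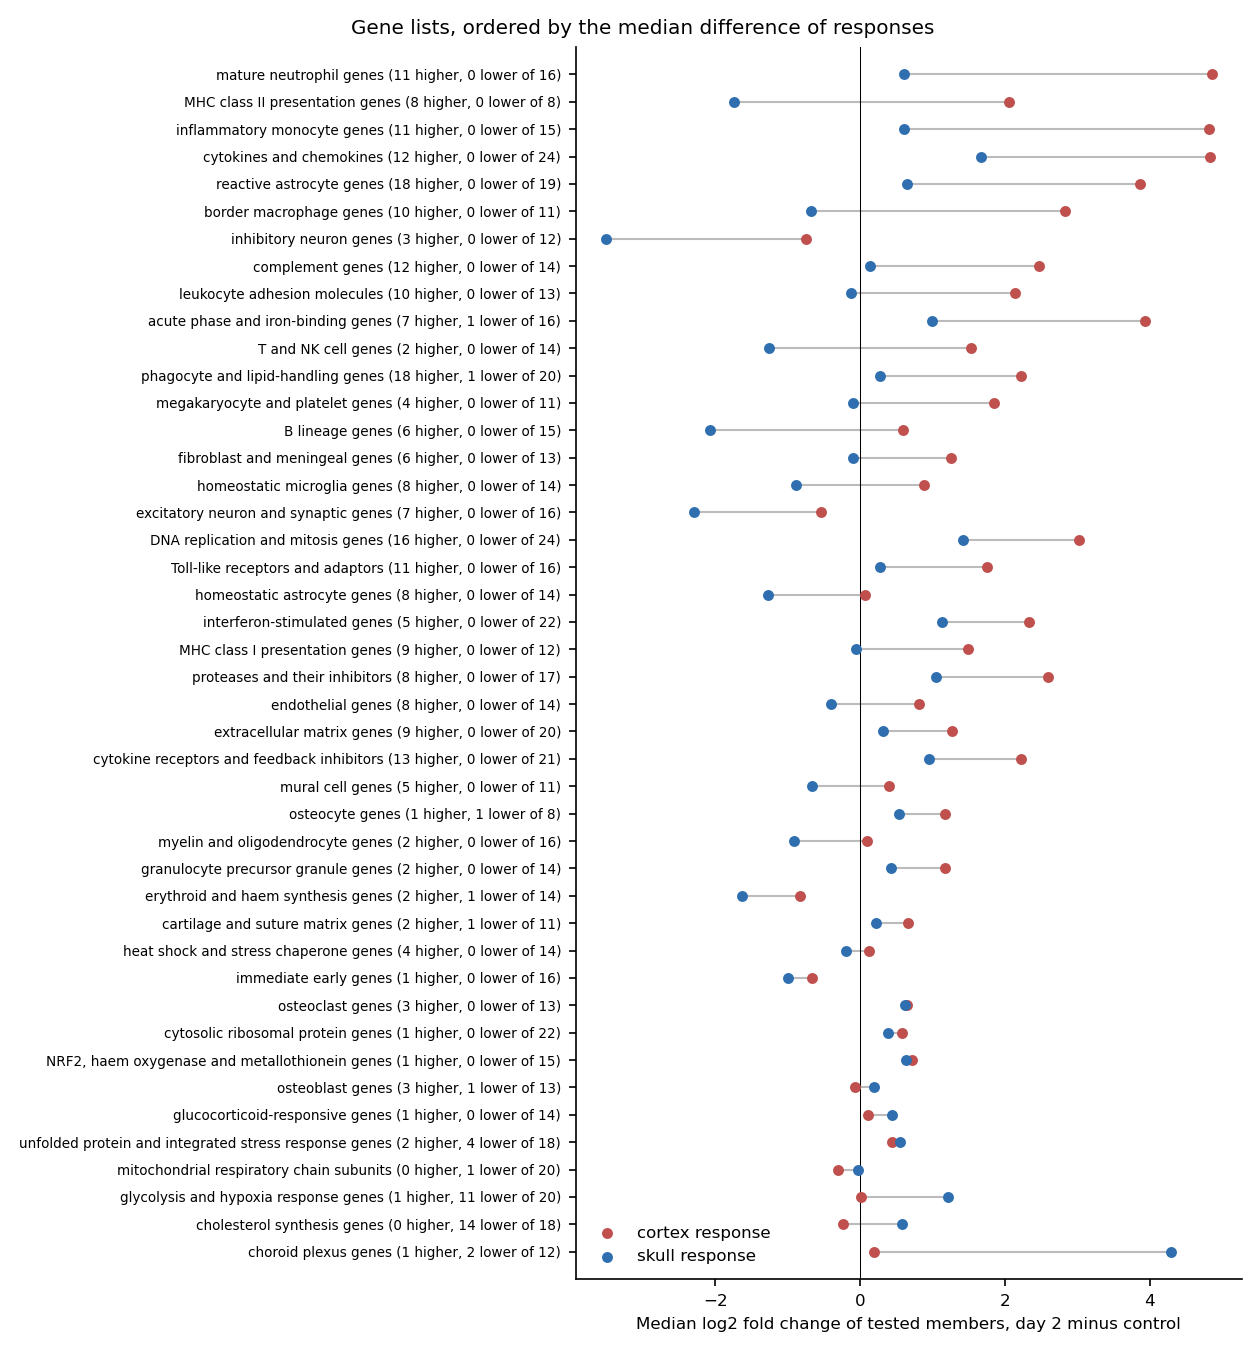
Median log2 fold change, day 2 against control, of the tested members of 44 gene lists in cortex (red) and skull (blue), ordered by the median difference; the counts of higher and lower members stand beside each name. Lists of inflammatory cells and reactive astrocytes lie far to the right in cortex, and cholesterol synthesis and glycolysis lie further right in skull.

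Reactive astrocyte genes were higher almost without exception, 18 of 19, with Aspg as the only one not called. All 19 rose in cortex (median 3.87) and 9 in skull (median 0.65). Several of these genes are known to be made outside the brain too, in bone, marrow and vessels. Vim, an intermediate filament protein of astrocytes and mesenchymal cells, went from 32.7, 24.3 and 21.5 to 477, 748 and 626 CPM in cortex and from 796, 1275 and 975 to 1933, 1666 and 1851 CPM in skull. Both tissues rose without overlap, and cortex further by 3.72 ± 0.30 (SE, adjusted p = 3.23e-05). S1pr3, a sphingosine 1-phosphate receptor, rose in cortex from 8.01, 8.9 and 10.9 to 68, 113 and 101 CPM and overlapped in skull, with 55.1, 34 and 45.9 CPM in controls and 49.8, 46 and 39.9 CPM on day 2 (3.33 ± 0.31 SE, adjusted p = 5.93e-05). Homeostatic astrocyte genes differed mainly through skull. Of 14, 8 were higher and none lower, with 1 of the 14 up and 1 down in cortex but 10 down in skull. Gjb6, a gap junction subunit of astrocytes, overlapped in cortex, with 66.6, 55.5 and 44.1 CPM in controls and 52.4, 53.6 and 47.6 CPM on day 2, and fell in skull from 63.8, 66.3 and 59.1 to 9.47, 18.4 and 11.9 CPM (2.14 ± 0.29 SE, adjusted p = 0.000699). The count of 8 was 5 without cortex control replicate 2, cortex control replicate 3 or skull control replicate 3, and 1 member was lower without cortex control replicate 3.

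Several microglia and macrophage genes moved in opposite ways in the 2 tissues. Among all genes, 215 (1.14%) were called opposite ways in the 2 tissues and in the difference, 177 (0.938%) up in cortex and down in skull and 38 (0.201%) the reverse. Fcrls, an Fc receptor-like protein typical of microglia (mm10, chr3:87250758-87263738), went from 6.61, 5.98 and 6.55 to 60.4, 65.7 and 52.6 CPM in cortex. In skull it went down, from 23.3, 17 and 23.4 to 6.02, 7.07 and 5.32 CPM. Among controls it was higher in every skull library than in any cortex library, and on day 2 the order was reversed. Its difference was 5.01 ± 0.23 (SE, adjusted p = 4.48e-07). Mrc1, the mannose receptor of border macrophages, rose in cortex from 7.55, 5.3 and 5.41 to 50.1, 48.9 and 27.1 CPM and fell in skull from 139, 104 and 123 to 63, 64.5 and 56.9 CPM, with a difference of 3.78 ± 0.32 (SE, adjusted p = 4.26e-05). Cx3cr1, the fractalkine receptor, rose from 44.3, 33.1 and 40 to 71.8, 91.8 and 92.3 CPM in cortex and fell from 31.2, 29.4 and 31.5 to 12.9, 13.5 and 10.8 CPM in skull (2.43 ± 0.20 SE, adjusted p = 2.79e-05). Of 14 homeostatic microglia genes 8 were higher and none lower, 8 rising in cortex and 6 falling in skull. The microglia markers P2ry12 and Tmem119 had differences of -0.05 and 0.35 and were not called (adjusted p = 0.911 and 0.459). Of 11 border macrophage genes 10 were higher (median 3.33), 10 rising in cortex and 4 falling in skull. Stab1, a scavenger receptor of sinusoids and perivascular macrophages, did both (3.57 ± 0.29 SE, adjusted p = 3.5e-05).

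Cd36, Fam46c and Tmem252 were, with Fcrls, Cd74 and Mrc1, the 6 genes with the largest differences among those that rose in cortex and fell in skull. Cd36, a fatty acid and thrombospondin receptor of macrophages and vessels, went from 1.92, 0.416 and 0.592 to 10.2, 16.4 and 19 CPM in cortex and from 100.2, 72 and 83.9 to 29.8, 31.6 and 40.1 CPM in skull (5.31 ± 0.56 SE, adjusted p = 0.00019). Fam46c, a poly(A) polymerase of red cell precursors and plasma cells, had 86.8, 123 and 101 CPM in skull controls and 75.5, 48.4 and 22.6 CPM on day 2. Its order over the day 2 skull libraries was that of the red cell genes given above, whose part in the result was not tested. In cortex Fam46c rose from 3.11, 2.95 and 1.69 to 15.9, 21.6 and 24.3 CPM, giving a difference of 4.07 ± 0.56 (SE, adjusted p = 0.00104). Tmem252, a small membrane protein, differed by 3.91 ± 0.35 (SE, adjusted p = 4.39e-05).

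Complement genes were higher in 12 of 14 and lower in none (median 2.77). The 3 chains of C1q, the molecule that starts the classical pathway, behaved alike. C1qb went from 16.9, 20.6 and 20 to 94.1, 147 and 111 CPM in cortex and from 56.6, 73 and 66.3 to 32.3, 29.7 and 33.1 CPM in skull, a rise and a fall without overlap of the groups (3.66 ± 0.23 SE, adjusted p = 4.84e-06). C1qa (3.17) and C1qc (3.50) also rose in cortex and fell in skull. C3, the central component, rose in cortex from 0.298, 0.151 and 0.211 to 19.3, 37.5 and 20.1 CPM. In skull it stood at 34.8, 52.4 and 39.7 CPM in controls and 51.7, 68.8 and 56.9 CPM on day 2, where the groups overlapped (6.35 ± 0.47 SE, adjusted p = 2.13e-05). C2 and Cfb, were the members not called.

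All 8 tested genes of MHC class II antigen presentation were higher, 5 of them rising in cortex and all 8 falling in skull. Their median difference was 4.27, or 3.83 at the floor. Cd74, the invariant chain that guides class II molecules, rose in cortex from 1.45, 1.59 and 2.33 to 2.68, 9.84 and 8.55 CPM and fell in skull from 167, 90.7 and 141 to 22.8, 26.6 and 21.6 CPM. Even after that fall every skull library lay above every cortex library. Its difference was 4.46 ± 0.58 (SE, adjusted p = 0.000713). H2-Eb1, a class II beta chain, went from 0.554, 0.795 and 0.338 to 1.23, 3.78 and 2.52 CPM in cortex and from 57.6, 33.2 and 47 to 9.33, 9.65 and 6.97 CPM in skull (4.55 ± 0.55 SE, adjusted p = 0.000312). B lineage genes, whose cells also carry class II molecules, fell in skull for 10 of 15 tested, and their summed level spanned 181 to 238 CPM in skull controls and 78.7 to 93.5 CPM on day 2. In the difference 6 of the 15 were higher, among them Cd79b, a signalling chain of the B cell receptor (4.73 ± 0.78 SE, adjusted p = 0.00202). In cortex the same list summed to 28.6 to 33.1 CPM in controls and 34.5 to 47.3 CPM on day 2. The part of B cells in the class II result was not tested. Class I presentation genes were higher in 9 of 12 (median 1.40), without a general fall in skull, where 1 of 12 fell. Psmb8, a subunit of the immunoproteasome, rose in cortex from 0.597, 0.492 and 0.465 to 2.35, 6.01 and 4.06 CPM and overlapped in skull, with 9.49, 14.7 and 12.7 CPM in controls and 13.7, 13.1 and 19.4 CPM on day 2 (2.66 ± 0.47 SE, adjusted p = 0.00292).

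Interferon-stimulated genes gave a count that rests on 1 library. Over all libraries 5 of 22 were higher and none lower, with a median difference of 1.43. Of all genes tested, 14% were higher and 14.7% rose in cortex. Without skull day 2 replicate 3, whose summed level stood apart, 20 of 22 were higher and the median was 2.44, and without cortex control replicate 3 or cortex day 2 replicate 3 the count was 3. In cortex 17 of the 22 rose, and summed levels spanned 107 to 121 CPM in controls and 377 to 496 CPM on day 2. Ifitm3, a membrane protein that blocks virus entry, was less uneven, with 6.44, 7.53 and 5.75 CPM in cortex controls, 59.4, 97.8 and 70.9 CPM in cortex on day 2, 98.8, 155 and 119.9 CPM in skull controls and 286, 301 and 445 CPM in skull on day 2. It rose in both tissues without overlap, and further in cortex by 2.06 ± 0.33 (SE, adjusted p = 0.0021). Rsad2, an antiviral radical enzyme, rose in cortex from 0.895, 0.833 and 1.73 to 4.3, 5.28 and 4.22 CPM, and in skull had 33, 57.4 and 40.1 CPM in controls and 27.8, 18.5 and 39.8 CPM on day 2 (2.60 ± 0.48 SE, adjusted p = 0.00415).

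**Figure D4:**
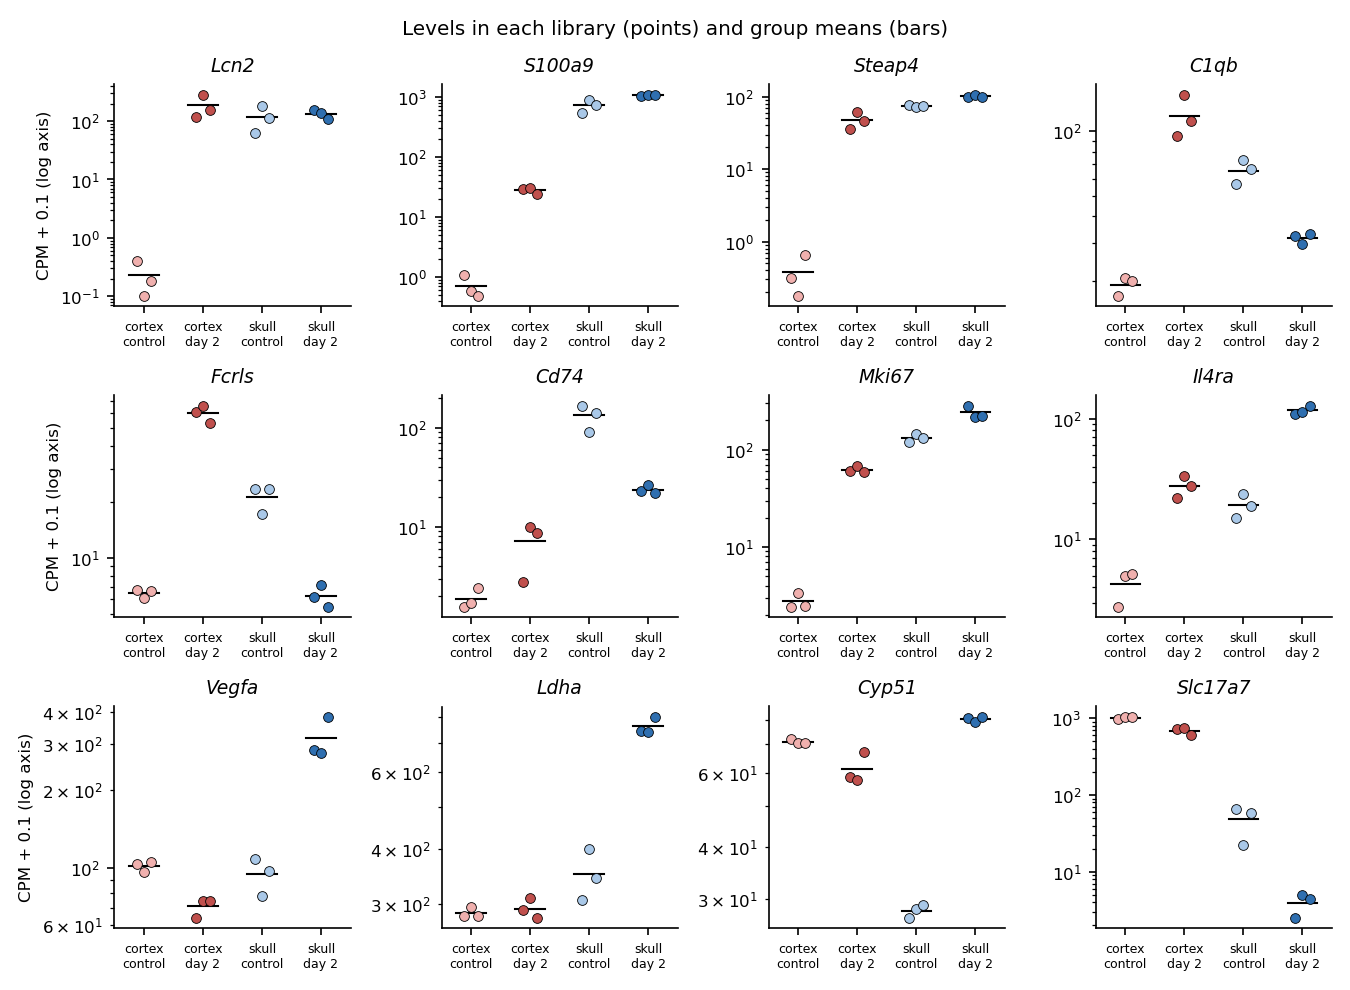
CPM + 0.1 (log axis) of 12 genes in each library; points are single libraries and bars group means, n = 3 each. Lcn2, S100a9 and Steap4 rose from near 0 in cortex, C1qb, Fcrls and Cd74 moved in opposite ways, and Vegfa, Ldha and Cyp51 rose in skull with no rise in cortex.

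Genes of DNA replication and mitosis rose in both tissues, all 24 tested in cortex and all 24 in skull. Cortex controls were lower, at a summed 106 to 116 CPM against 623 to 847 CPM in skull controls. On day 2 the sums were 486 to 603 CPM in cortex and 1570.0 to 1895 CPM in skull. The log2 response was higher in cortex for 16 of the 24 and lower for none (median 1.49). Mki67, a nuclear protein of cycling cells, went from 2.3, 3.29 and 2.37 to 59.7, 68.3 and 59.2 CPM in cortex and from 121, 146 and 131 to 284, 219 and 221 CPM in skull. The difference of 3.68 ± 0.21 (SE, adjusted p = 3.84e-06) stood beside mean gains of 59.8 CPM in cortex and 109 CPM in skull. Mcm6, a subunit of the replicative helicase, went from 2.47, 2.08 and 2.16 to 24.2, 28 and 23.2 CPM in cortex and from 25.6, 36.5 and 30.7 to 82, 69 and 76.8 CPM in skull (2.19 ± 0.20 SE, adjusted p = 5.61e-05). The promoter of Mcm6 is shown because it holds the letters TTTNGCGC, a form of the E2F site of S-phase genes, 3 times (GRCm38.p6, chr1:128359656-128359955, minus strand, from RefSeq, 250 bases before to 50 after the start, gene strand); the capitals mark the matches on either strand, which overlap in part.
Mcm6: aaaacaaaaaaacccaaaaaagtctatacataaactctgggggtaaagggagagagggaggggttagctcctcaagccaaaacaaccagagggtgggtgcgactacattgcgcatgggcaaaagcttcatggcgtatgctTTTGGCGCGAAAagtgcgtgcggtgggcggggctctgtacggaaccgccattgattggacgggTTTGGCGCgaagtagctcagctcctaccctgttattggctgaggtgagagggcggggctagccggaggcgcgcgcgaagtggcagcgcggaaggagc
These letters, searched on both strands, were in 5 of the 21 list members with a promoter in the RefSeq table and in 2.53% of 12941 tested genes with one. A match is a description of the sequence only.

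Responses shared by the 2 tissues, with a difference within 2-fold, were also found. Of 1368 genes called the same way in both tissues (7.25%), 993 up and 375 down, 788 had a 95% interval of the difference that lay within -1 to 1, that is within 2-fold either way. Il4ra rose from 2.64, 4.85 and 5.03 to 22.1, 33.5 and 27.6 CPM in cortex and from 14.9, 23.9 and 18.9 to 109, 113 and 128 CPM in skull, with a difference of 0.13 and an interval of -0.61 to 0.86. Adm, which encodes the vasodilator peptide adrenomedullin, rose by 2.37 in cortex and 2.19 in skull (interval of the difference -0.55 to 0.91). Hmmr, a spindle and hyaluronan-binding protein, rose by 2.17 and 2.17 (interval -0.65 to 0.65). Ier3, an early stress gene, Mt1, a metal-binding metallothionein, and Sdc4, a cell surface proteoglycan, completed the 6 with the largest shared rise, with differences of -0.12, -0.27 and 0.39. Among shared falls, Hdac9, a histone deacetylase, dropped from 69, 59 and 53.2 to 35.5, 28.4 and 25.3 CPM in cortex and from 21, 14.2 and 14.2 to 8.59, 8.13 and 9.33 CPM in skull (interval -0.65 to 0.45). Prmt8, Stx1a and Ephb6, all enriched in neurons, also fell in both, with intervals of -0.13 to 0.99, -0.40 to 0.59 and -0.46 to 0.78. The matrix protein gene Abi3bp and the actin regulator Fhod3 did so too, with intervals of -0.96 to 0.40 and -0.35 to 0.49.

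**Figure D5:**
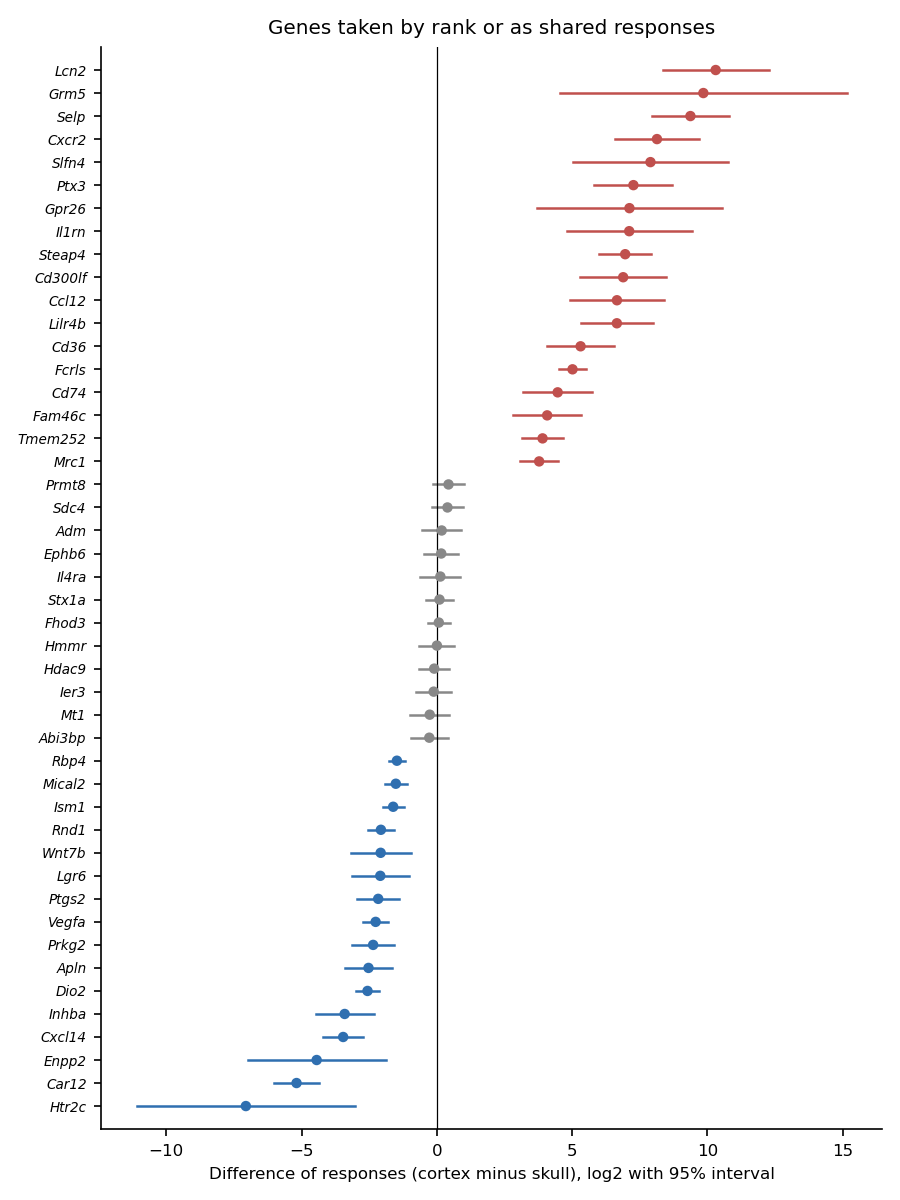
Difference of the log2 responses, cortex minus skull, with its 95% interval, for the genes taken by rank, by opposed responses and by shared responses. Higher genes are red and lower genes blue, and the shared responses (grey) lie between -0.28 and 0.43.

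Hypoxia and glycolysis genes formed a group that was lower. Of 20 tested, 11 were lower and 1 higher, with a median difference of -0.78 against 0.20 over all genes. In skull 18 of the 20 rose (median 1.21), while in cortex 6 rose and 2 fell (median 0.02). Vegfa, the growth factor for blood vessels (mm10, chr17:46016993-46032369), was at 103, 96.2 and 105 CPM in cortex controls and 63.8, 74.5 and 74.6 CPM on day 2. In skull it was at 108, 77.5 and 97.4 CPM in controls and 286, 278 and 384 CPM on day 2. Controls of the 2 tissues overlapped, while day 2 was lower than control in cortex and higher in skull, with no overlap in either. The difference was -2.26 ± 0.21 (SE, adjusted p = 5e-05). Pgk1, the glycolytic phosphoglycerate kinase, overlapped in cortex (88.9, 114 and 106 CPM in controls, 94.8, 91.5 and 94.6 CPM on day 2) and rose in skull from 44.1, 56.2 and 43.4 to 125, 132 and 132 CPM (-1.57 ± 0.16 SE, adjusted p = 0.000108). Ldha, which makes lactate from pyruvate, likewise overlapped in cortex (281, 296 and 282 and 290.5, 309 and 278 CPM) and rose in skull from 307, 401 and 343 to 745, 738 and 802 CPM (-1.09 ± 0.14 SE, adjusted p = 0.000516). Pfkl, the liver-type phosphofructokinase, fell by 0.30 on the log2 scale in cortex and rose by 1.08 in skull (-1.38 ± 0.13 SE, adjusted p = 5.91e-05). The higher member was Hk2, the inducible hexokinase, which rose in cortex from 2.26, 4.01 and 3.42 to 15.8, 28 and 25.1 CPM and in skull from 42.2, 30.5 and 40.6 to 59.9, 61.9 and 83.7 CPM (1.96 ± 0.35 SE, adjusted p = 0.00378).

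The promoters of Pgk1 and Ldha are shown because these are lower members described above and because each holds the core ACGTG, the letters bound by hypoxia-inducible factors. The sequences are from RefSeq on GRCm38.p6, 250 bases before to 50 after the start on the gene's strand. Some genes, such as Aldoa and Pfkfb3, had more than 1 start there. A gene counted as a match if any of its windows held the core. Pgk1 lies at chrX:106186850-106187149, plus strand, and Ldha at chr7:46845554-46845853, plus strand. Capitals mark the core on either strand, and where the palindrome CACGTG occurs both strands match and overlap.
Pgk1: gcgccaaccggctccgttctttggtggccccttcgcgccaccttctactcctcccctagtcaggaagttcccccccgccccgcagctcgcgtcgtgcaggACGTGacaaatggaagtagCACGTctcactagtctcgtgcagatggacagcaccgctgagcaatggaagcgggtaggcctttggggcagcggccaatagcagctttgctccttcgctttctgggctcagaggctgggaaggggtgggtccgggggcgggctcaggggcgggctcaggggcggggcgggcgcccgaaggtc
Ldha: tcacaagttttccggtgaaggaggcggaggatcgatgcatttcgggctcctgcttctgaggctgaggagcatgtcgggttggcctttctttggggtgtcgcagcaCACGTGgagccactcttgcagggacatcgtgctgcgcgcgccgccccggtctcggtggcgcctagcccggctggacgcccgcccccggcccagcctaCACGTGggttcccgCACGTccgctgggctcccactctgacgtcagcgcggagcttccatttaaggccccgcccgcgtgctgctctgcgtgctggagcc
The core occurred at 2 places for Pgk1 and 5 times for Ldha when both strands were counted. It was in 16 of 19 list members with a promoter in the table, 10 of 12 among those called, and in 27.4% of all 12941 tested genes with one. Pfkl, a lower member described above, was not among the 16. The list was chosen by the known function of its members, so this share is no result about these data. Each match describes the sequence only. Hk2, which went the other way, also holds it at 2 places. For Ldha and Vegfa the start of the matching window lies inside the gene as GENCODE annotates it (Ldha, chr7:46841475-46855627). The Vegfa window is not shown.

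Cholesterol synthesis genes were lower in 14 of 18 and higher in none, with a median of -0.94. Skull rose for 15 of them and cortex fell for 5. Cyp51, the lanosterol demethylase, went from 72.1, 70.3 and 70.5 to 58.6, 57.6 and 67 CPM in cortex and from 26.9, 28.3 and 29 to 80.9, 79 and 81.4 CPM in skull. The cortex groups did not overlap, but the response of -0.22 was not called (adjusted p = 0.0735), and the difference was -1.74 ± 0.11 (SE, adjusted p = 5.8e-06). Hmgcs1, which condenses acetyl units at the start of the pathway, fell in cortex from 273, 278 and 264 to 197, 147 and 191 CPM and rose in skull from 76.4, 68.7 and 67.6 to 114, 127 and 127 CPM (-1.40 ± 0.16 SE, adjusted p = 0.000181). Insig1, which holds sterol-regulated transcription back, fell in cortex from 64.7, 58.2 and 61.9 to 40.6, 37.2 and 41.7 CPM and rose in skull from 42.4, 42.9 and 46 to 53.4, 55.4 and 55.9 CPM (-0.96 ± 0.11 SE, adjusted p = 0.000249). Hmgcs1 is shown as the only 1 of 12 members with a promoter in the table that holds TCACNCCAC, a form of the sterol regulatory element, which 1.44% of tested genes hold (both strands searched; chr13:119690101-119690400, plus strand, same source and window, capitals mark the match).
Hmgcs1: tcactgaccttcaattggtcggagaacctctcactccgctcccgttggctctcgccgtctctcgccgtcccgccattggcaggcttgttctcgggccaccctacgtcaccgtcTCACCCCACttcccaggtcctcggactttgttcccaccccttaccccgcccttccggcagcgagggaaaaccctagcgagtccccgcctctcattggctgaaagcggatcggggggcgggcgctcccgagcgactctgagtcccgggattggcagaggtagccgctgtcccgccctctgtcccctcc
No match in the other promoters says only that these letters are not in this window.

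The largest lower differences came with higher levels in skull on day 2. Among them, the choroid plexus genes Htr2c and Enpp2 are given further on. Prkg2 and Vegfa, which also fell in cortex, are described elsewhere. Car12, a membrane carbonic anhydrase that hypoxia induces in many tissues (mm10, chr9:66713686-66766845), was at 19.7, 37.1 and 30.9 CPM in cortex controls and 27.4, 26.7 and 30.6 CPM on day 2, groups that overlapped. In skull it went from 2.55, 2.89 and 3.15 to 105, 129 and 68.9 CPM, for a difference of -5.19 ± 0.38 (SE, adjusted p = 2.06e-05). In skull on day 2 replicate 2 was highest and replicate 3 lowest, all far above the controls. Cxcl14, a chemokine of epithelia and bone, rose in skull from 99.3, 48.2 and 75.9 to 611, 762 and 543 CPM and was at 115, 114 and 103 and 71.2, 104 and 82.1 CPM in cortex (-3.46 ± 0.34 SE, adjusted p = 8.95e-05). Inhba, the activin subunit, rose in skull from 40, 20.1 and 32.1 to 182, 131 and 229.8 CPM. In cortex it stood at 17, 32.5 and 25.8 CPM in controls and 10.6, 12 and 19.3 CPM on day 2, groups that overlapped (-3.41 ± 0.48 SE, adjusted p = 0.0012). Dio2, which makes active thyroid hormone, rose in skull from 46.6, 36.5 and 40.2 to 217, 168 and 246 CPM against 98.8, 93.4 and 104 and 85.2, 85.6 and 85.8 CPM in cortex (-2.56 ± 0.19 SE, adjusted p = 1.52e-05). Apln, a vascular peptide, rose in skull from 5.74, 7.7 and 7.08 to 71.8, 63.2 and 64.8 CPM and overlapped in cortex, with 18.4, 29.8 and 28.5 and 24.1, 51.4 and 53.7 CPM (-2.53 ± 0.40 SE, adjusted p = 0.00198). Ptgs2, the inducible cyclooxygenase, went from 18.8, 18.9 and 18.9 to 90.1, 84.3 and 189 CPM in skull and from 19.4, 20.3 and 21.4 to 29.2, 29.4 and 28.5 CPM in cortex. Its cortex groups did not overlap, though the response of 0.51 was not called (adjusted p = 0.19), and the difference was -2.17 ± 0.35 (SE, adjusted p = 0.00229). Lgr6, an R-spondin receptor (-2.09), and Wnt7b, a Wnt ligand (-2.08), were lower by about as much. The call of Wnt7b was lost with limma voom (adjusted p = 0.0726) and without skull control replicate 3 (adjusted p = 0.0517).

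A fall in cortex and a rise in skull, the reverse of the course of Fcrls and Cd36, was led by Prkg2 and Vegfa. Prkg2, a cyclic GMP-dependent kinase of growing cartilage and neurons, went from 20.4, 13.9 and 15.1 to 11.8, 8.23 and 8.94 CPM in cortex and from 3.33, 1.99 and 3.22 to 8.45, 6.67 and 10.6 CPM in skull (-2.36 ± 0.36 SE, adjusted p = 0.00129). Rnd1, a small GTP-binding protein of the cytoskeleton, went from 30.3, 39.2 and 41.1 to 19.3, 21.9 and 17.3 CPM in cortex and from 5.74, 4.95 and 6.29 to 11.8, 12.3 and 13.7 CPM in skull (-2.07 ± 0.22 SE, adjusted p = 0.000112). Both genes moved without overlap in either tissue. Ism1, a secreted inhibitor of vessel growth (-1.62), Mical2, an actin-oxidising enzyme (-1.52), and Rbp4, the retinol carrier (-1.48), had the same form at smaller size.

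Bone genes as a list did not lean to either side. Of 13 osteoblast genes 3 were higher and 1 lower, with a median of 0.00, beside 14% higher and 3.6% lower over all genes tested. The 3 higher were Spp1 and the collagens Col1a1 and Col1a2. Without cortex control replicate 2 or 3, skull control replicate 1 or 3, or any skull library of day 2, Spp1 alone was higher. The lower one was Ibsp, bone sialoprotein, a matrix protein that seeds mineral. It was at 648, 742 and 684 CPM in skull controls and 8512, 7582 and 7358 CPM on day 2, and under 1 CPM in every cortex library. The skull rise was 3.50 and the difference -3.57 ± 0.82 (SE, adjusted p = 0.0137), but the cortex side rests on almost no counts. The call was lost with limma voom (adjusted p = 0.145), with the replicate number as a block within each tissue (adjusted p = 0.0652) and without cortex control replicate 1 (adjusted p = 0.0776). Among 13 osteoclast genes 3 were higher, Acp5, Mmp9 and Tcirg1, and 1 without cortex control replicate 2, with limma voom or with the block within each tissue. Acp5 lost its call under 13 alternatives (adjusted p = 0.348 over all 18 libraries). Mmp9 and Tcirg1 lost theirs with that block (adjusted p = 0.0732 and 0.0758). Among 11 genes of cartilage and sutures 2 were higher, and Col9a1 was lower; without skull control replicate 1, 2 were lower. Col2a1, the collagen of cartilage, fell in skull from 23, 15.9 and 21.4 to 3.58, 3.5 and 3.48 CPM (3.42 ± 0.56 SE, adjusted p = 0.00203).

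Of 20 extracellular matrix genes 9 were higher, 17 of the 20 rising in cortex and 8 in skull. The count was 4 or 5 when any of 6 libraries was left out: cortex control replicate 2 or 3, cortex day 2 replicate 2, skull control replicate 3, or skull day 2 replicate 2 or 3. Thbs1, thrombospondin 1, rose from 2.52, 0.984 and 1.61 to 28.8, 83.4 and 55.7 CPM in cortex and was at 353, 266 and 303 CPM in controls and 408, 383 and 342 CPM on day 2 in skull, with groups apart in cortex and overlapping in skull (4.75 ± 0.53 SE, adjusted p = 0.000312). Timp1, an inhibitor of matrix proteases, rose in both, from 1.07, 1.06 and 1.69 to 46.8, 83.7 and 65.3 CPM in cortex and from 92, 169 and 126 to 1036, 1029.6 and 1161 CPM in skull, and further in cortex by 2.62 ± 0.38 (SE, adjusted p = 0.0011). Endothelial genes were higher in 8 of 14, with 10 rising in cortex and 6 falling in skull. Cldn5, the tight junction protein of brain vessels, went from 27.2, 29 and 28.2 to 39.2, 68.5 and 50.1 CPM in cortex and from 21.8, 24.1 and 24.7 to 12.6, 17.2 and 15.3 CPM in skull (1.55 ± 0.25 SE, adjusted p = 0.00199).

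Of 15 genes of the NRF2, haem oxygenase and metallothionein list, 7 rose in cortex and 9 in skull, and Hmox1 was the only one called in the difference. Without cortex day 2 replicate 1, 2 were higher, and without cortex control replicate 3, 1 was lower. Hmox1, which breaks down haem, went from 4.26, 5.87 and 6.98 to 146, 324 and 232 CPM in cortex and from 36.3, 72.3 and 53.8 to 318, 409 and 258 CPM in skull. On day 2 the 2 tissues overlapped, and the log2 difference was 2.76 ± 0.47 (SE, adjusted p = 0.00346). Of 18 genes of the unfolded protein and integrated stress responses, 2 were higher and 4 lower. Hsp90b1, a chaperone of the endoplasmic reticulum (-0.82 ± 0.15 SE, adjusted p = 0.00384), and Asns, asparagine synthetase (-1.03 ± 0.19 SE, adjusted p = 0.00389), were lower, while Atf3, a stress-induced transcription factor, was higher. Atf3 went from 0.597, 0.0757 and 0.93 to 7.27, 16 and 17.1 CPM in cortex and was at 14.3, 4.54 and 11.7 and 7.03, 9.51 and 12.4 CPM in skull (4.74 ± 0.86 SE, adjusted p = 0.00426). Among 22 cytosolic ribosomal protein genes 1 was higher, Rplp0, and none lower, against 14% and 3.6% of all genes tested. Among 20 mitochondrial respiratory chain subunits 9 fell in cortex and 1 in skull, with a median difference of -0.22, and 1, Atp5b, was lower. That count was 2 without cortex day 2 replicate 1, 0 without 9 other libraries (all but cortex control replicate 1 and skull control replicate 1), and 3 to 7 under other scalings, other sets of genes, limma voom or DESeq2.

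Neuronal genes were higher through their fall in skull. Of 16 excitatory neuron and synaptic genes, 7 were higher and none lower, all 16 fell in skull and 5 fell in cortex. Slc17a7, the vesicular glutamate transporter of cortical neurons, was at 983, 1032 and 1057 CPM in cortex controls and 717, 746 and 614 CPM on day 2. In skull controls it was at 66.4, 22.5 and 58 CPM, and on day 2 at 2.37, 4.82 and 4.34 CPM. The difference was 3.10 ± 0.50 (SE, adjusted p = 0.00235). Grm5, a glutamate receptor, had 11.9, 0.55 and 7.79 CPM in skull controls and no count in any skull library of day 2, against 248, 212 and 233 CPM in cortex controls, and Gpr26, an orphan receptor of brain, had 24.6, 1.65 and 13.7 CPM in skull controls and 0, 0.0661 and 0.0657 CPM on day 2. In both, skull control replicate 2 was the lowest of its group. The fitted differences, 9.85 for Grm5 and 7.12 for Gpr26, depend on these low counts and are no bounds. The call of Grm5 (adjusted p = 0.0223) was lost with limma voom, with no filter, and without cortex control replicate 2 or 3 or skull control replicate 3 (adjusted p from 0.0509 to 0.0835), and that of Gpr26 (adjusted p = 0.0111) with limma voom (adjusted p = 0.130).

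As a share of the cortex level, the summed excitatory neuron list in skull was 6.91% to 10.5% in controls and 3.29% to 4.58% on day 2, and the inhibitory list 6.28% to 42.4% and 2.93% to 8.62%. For 2 lists of other brain cells the ranges of controls and day 2 overlapped. The share of myelin and oligodendrocyte genes was 8.49% to 11.4% in controls and 11.2% to 12.2% on day 2, and that of homeostatic astrocyte genes 18% to 29.7% and 23% to 24.4%. The sums do not show single members. In skull 10 of 14 homeostatic astrocyte genes fell and 1 rose, and 4 of 16 myelin and oligodendrocyte genes fell and 2 rose. The share in controls and on day 2 was 9.77% and 0.846% for Kcnj10, 69.9% and 25.3% for S100b, and 4.42% and 0.22% for Olig1. Single genes of neurons differed widely. The share in controls and on day 2 was 4.78% and 0.555% for Slc17a7, 4.42% and 0.0979% for Grin2b, a subunit of the NMDA receptor, and 2.92% and 0% for Grm5, but 9.12% and 8.53% for Stx1a and 13.9% and 12.4% for Ephb6, which are among the genes taken for shared responses. Of the microglial genes that fell in skull, Fcrls was at 333% of the cortex level in controls and 10.3% on day 2, and Cx3cr1 at 78.4% and 14.5%. Whether the neuronal transcripts in skull came from cortex tissue in the sample was not tested. When the genes at least 4-fold higher in cortex controls than in skull controls were left out, 2961 genes were called, 1963 higher and 998 lower.

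Choroid plexus genes were another list with an uneven skull group, beside the red cell and interferon-stimulated lists described earlier. Of 12 tested, 2 were lower, Enpp2 and Prlr, and 1 higher, Aqp1, with a median of -4.47, and 8 rose in skull. Over all genes tested, 3.6% were lower, 14% were higher and 12.2% rose in skull. The call of Aqp1 (adjusted p = 0.0450) was lost under 16 alternatives, among them limma voom, both replicate blocks and the leaving out of most single libraries, and that of Prlr (adjusted p = 0.0429) under 15. Enpp2, the lysophospholipase autotaxin, had 73.3, 93.2 and 78.1 CPM in skull controls and 114, 3191 and 905 CPM on day 2. Htr2c, a serotonin receptor that choroid plexus makes in quantity, had 0.283, 0.275 and 0.214 CPM in skull controls and 1.01, 84.2 and 25.9 CPM on day 2, and 24.3, 25.1 and 12.7 CPM in cortex controls and 28.4, 9.37 and 27.4 CPM in cortex on day 2. In both, skull day 2 replicate 2 was far above replicate 3, and replicate 1 lay closest to the controls. Kl, the Klotho gene, showed the same order with 2.16, 231 and 72.6 CPM on day 2, and its difference of -5.08 was not called (adjusted p = 0.0529). The differences of Htr2c (-7.06 ± 1.81 SE, adjusted p = 0.0241) and Enpp2 (-4.44 ± 1.15 SE, adjusted p = 0.0246) lost their call under 8 and 11 alternatives. The count of 2 lower members was 8 without skull day 2 replicate 1, 1 without cortex control replicate 1, cortex day 2 replicate 2 or skull day 2 replicate 2 or 3, and 0 without any of the other 7 libraries. The part of ventricle tissue in these values was not tested.

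The other lists had few calls, and single libraries decided many of them. Over all genes tested, 14% were higher and 3.6% lower. Of 12 inhibitory neuron genes 3 were higher, Gad2, Sst and Dlx1. That count was 8 without skull control replicate 2, whose neuronal genes were lowest, 1 without skull day 2 replicate 1 or 3, and 0 without any of the other 9 libraries. Of 16 immediate early genes, which mark recent activity of cells, 1 was higher, Fosb. Without skull control replicate 2 it was 5, without cortex control replicate 1 it was 2, and it was 0 without cortex control replicate 2 or 3, any cortex library of day 2, skull control replicate 3, or skull day 2 replicate 2 or 3. Of 16 myelin and oligodendrocyte genes 2 were higher, the transcription factors Olig1 and Olig2, and none with limma voom (adjusted p = 0.0940 and 0.0723), while Mbp, of the myelin sheath, was not called. Of 11 mural cell genes 5 were higher (3 without cortex day 2 replicate 2 or 3 or skull control replicate 3), among them Acta2, the actin of smooth muscle, which fell in skull from 255, 368 and 290.0 to 182, 202 and 182 CPM (1.30 ± 0.31 SE, adjusted p = 0.0158). Of 13 fibroblast and meningeal genes 6 were higher (3 without cortex control replicate 2 or 3, skull control replicate 1 or 3, or skull day 2 replicate 1 or 3), with Lum, a collagen-binding proteoglycan, at 2.43 ± 0.34 SE, adjusted p = 0.0007.

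The shares of all genes, 14% higher and 3.6% lower, are also the background for the counts that follow. Among marrow cells, 10 of 14 erythroid and haem synthesis genes fell in skull, but 2 were higher in the difference, Ank1 and Fech, and 1 lower, Tfrc. The higher count was 1 without cortex control replicate 2, cortex day 2 replicate 2, skull control replicate 3 or skull day 2 replicate 2. The lower count was 0 without cortex control replicate 2 or 3, cortex day 2 replicate 2 or 3, skull control replicate 1 or 3, or skull day 2 replicate 1 or 3. Of 11 megakaryocyte and platelet genes 4 were higher, and 2 without any cortex control or without cortex day 2 replicate 2 or 3. Vwf, the von Willebrand factor of platelets and endothelium, rose in cortex from 11.3, 6.85 and 9.81 to 41, 58.5 and 46.8 CPM and fell in skull from 264, 413 and 319 to 118, 147 and 125 CPM (3.74 ± 0.30 SE, adjusted p = 3.23e-05). Of 14 T and NK cell genes 2 were higher, Gzma and Ncr1, both at or near 0 in cortex controls. That count was 4 without cortex day 2 replicate 1, and 1 without cortex control replicate 2, cortex day 2 replicate 3, skull control replicate 3 or skull day 2 replicate 1. Of 17 proteases and inhibitors 8 were higher, and 5 with limma voom. Mmp12, the elastase of macrophages, had 3 counts in cortex controls and 514 on day 2, a ratio of 227 with a counting interval of 77.3 to 1105, while its skull response of 1.22 was not called (adjusted p = 0.0601). Of 14 heat shock genes 4 were higher, including Hspb1 (3.45 ± 0.47 SE, adjusted p = 0.000651). The count was 2 without any cortex control, cortex day 2 replicate 2 or 3, skull control replicate 1 or 3, or skull day 2 replicate 3, and 1 gene was lower without cortex day 2 replicate 1.

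On the later days, which differ between the tissues and are set side by side only, levels are CPM scaled over all 18 libraries (mean ± SD, n = 3). Lcn2 was at 182 ± 84.9 CPM in cortex on day 2 and 6.68 ± 0.255 CPM on day 6, and at 131 ± 23.9 CPM in skull on day 2 and 276 ± 101 CPM on day 4. Fcrls was at 58.4 ± 6.2 and 33 ± 6.27 CPM in cortex, and at 6.02 ± 0.867 and 29.4 ± 1.33 CPM in skull. Cd74 was at 6.88 ± 3.72 and 6.39 ± 2.69 CPM in cortex and at 23.2 ± 2.55 and 108 ± 19.6 CPM in skull. Vegfa was at 69.6 ± 6 and 92.5 ± 7.38 CPM in cortex and at 309.7 ± 57.7 and 91.1 ± 10.3 CPM in skull. Summed reactive astrocyte genes ranged over 3956 to 5767 CPM on day 2 and 1669 to 2421 CPM on day 6 in cortex. Summed cholesterol synthesis genes ranged over 684 to 725 CPM on day 2 and 388 to 515 CPM on day 4 in skull.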

How the data were processed

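RNA was read from 18 libraries, and the 12 of cortex and skull at control and day 2 were analysed. The authors deposited 1 table of raw read counts per gene. Per the submitters' processing notes the tools include HISAT2 2.1.0 and the build is mm10, while counting program, annotation and strand use remain not given in the sources used here. In the table were 865 surplus lines identical to another line (49 gene names repeated), and keeping each once left 25918 names. No column of another sample was present (0 unused).

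Counts were filtered with filterByExpr by group and scaled with TMM, and tested with edgeR 4.0.16 (limma 3.58.1, R 4.3.3) by robust quasi-likelihood F tests with a prior count of 0.125. Dispersions were estimated over the 4 groups, and the contrast was the cortex response minus the skull response. Standard errors are the size of the log2 change over the square root of F, or Wald errors below 0.5 on the log2 scale. Benjamini-Hochberg adjustment ran over all 18863 genes tested, and 95% intervals use the test's degrees of freedom. The steps were tested on simulated data. The floor for a group without counts was 3 counts over the group, and counting intervals cover counting error only. Total counts per library ran from 13398631 to 27654269, which sets the precision of low genes.

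The genes named, whose mean reached 5 CPM in both tissues for the first 3 kinds, are the 12 largest called differences in each direction, the 6 largest of those called opposite ways in the 2 tissues, in each direction, the 6 largest shared responses in each direction with an interval within -1 to 1, and, in each of 44 gene lists, up to 4 members with the smallest p and those called against their list's median. Unnamed loci were skipped. Some genes that the rule takes are not reported here. Other names were added after their values were seen. The comparison, the lists and their members were chosen with earlier results of these data known. The labels number the libraries but do not say that they are separate animals, so p-values measure the spread between these libraries, which may be technical. Deviations from the group means of libraries with the same number had correlations of -0.02 to 0.40 in cortex and 0.00 to 0.15 in skull. For other pairs these were -0.47 to 0.23 and -0.26 to 0.19. With so few libraries this cannot decide whether the numbers mark pairs. The main fit did not pair them, and fits with a replicate block are given below. Replicates differed by more than counting noise in every group. Of the list genes, 13 were not analysed here. Alternatives were other scalings, filters and sets of genes, DESeq2 1.42.0, limma voom, replicate blocks, all 18 libraries, stricter thresholds, and leaving out each library.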

Additional observations from a re-analysis of the deposited data

Results flagged for a closer look

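The changes of cortex and skull from control to day 2 differed for 3313 genes by the interaction test of edgeR, which tests the difference itself. The test of a group's highest or lowest value for a wide gap was not applied to groups of 3 libraries. The values below are log2 differences, cortex minus skull.

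Among inflammatory and myeloid genes with the largest higher differences, the value was Lcn2 10.30, Selp 9.37, Cxcr2 8.13, Slfn4 7.89, Ptx3 7.26, Il1rn 7.11, Steap4 6.96, Cd300lf 6.88, Ccl12 6.65 and Lilr4b 6.65. For the neuronal genes it was Grm5 9.85 and Gpr26 7.12. Among genes that rose in cortex and fell in skull it was Cd36 5.31, Fcrls 5.01, Cd74 4.46, Fam46c 4.07, Tmem252 3.91 and Mrc1 3.78.

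In the lower direction, the genes that choroid plexus expresses strongly gave Htr2c -7.06 and Enpp2 -4.44. Genes with a rise in skull gave Car12 -5.19, Cxcl14 -3.46, Inhba -3.41, Dio2 -2.56, Apln -2.53, Ptgs2 -2.17, Lgr6 -2.09 and Wnt7b -2.08. Genes that fell in cortex and rose in skull gave Prkg2 -2.36, Vegfa -2.26, Rnd1 -2.07, Ism1 -1.62, Mical2 -1.52 and Rbp4 -1.48.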

How the results depend on the processing

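The genes named by rank or by opposed responses kept their direction under every alternative, and calls were lost 29 times over the alternatives, by Enpp2, Htr2c, Grm5, Wnt7b, Slfn4, Gpr26 or Il1rn. Medians that lay near 0 changed sign under some settings, among them those of the immediate early, osteoblast, osteoclast, cartilage, NRF2 and glucocorticoid lists, and carry no direction. Stricter thresholds leave fewer genes by construction. At an adjusted p under 0.01, 1402 genes were called in the difference (1212 higher, 190 lower), 2167 in cortex (269 down) and 3122 in skull (1311 up, 1811 down). With a 2-fold minimum these were 2190 (187 lower), 1718 in cortex (1610 up, 108 down) and 2531 in skull (659 up, 1872 down). The count of lower genes was 1099 among genes expressed in both tissues, 1176 with DESeq2 and 1458 over all 18 libraries, and that of genes that fell in cortex was 1380, 1616 and 1557 under the same settings and 1521 with limma voom. Without genes at least 4-fold higher in cortex controls, 2188 genes fell in skull. The cause was not tested.

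Leaving out 1 library at a time gave 2185 to 3978 called genes (1829 to 3291 higher, 356 to 687 lower), 2208 to 2932 up and 407 to 1338 down in cortex, and 1567 to 2415 up and 2430 to 3656 down in skull. In the difference the lowest counts came without skull control replicate 3 and the highest without skull control replicate 2. The lower count moved by over 1.5 times without cortex control replicate 2 (424) or 3 (430) or skull control replicate 3 (356). The fall in cortex was 462 without cortex control replicate 2, 407 without cortex control replicate 3, 526 without cortex day 2 replicate 3 and 1338 without skull control replicate 2.

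With the replicate number as a block over the 4 groups 3095 genes were called (2459 higher, 636 lower), and with a block within each tissue 3023 (2436 and 587). Same-numbered libraries of cortex and skull had correlations of their deviations of -0.03 to 0.08 within a condition. Between cortex on day 2 and skull controls they reached 0.15. With so few libraries these values cannot decide whether the numbers mark pairs, and the main fit did not pair them. Under the block within each tissue the higher members went from 7 to 3 for excitatory neuron genes, from 8 to 5 for homeostatic astrocyte genes, from 6 to 3 for fibroblast genes and from 3 to 1 for osteoblast and osteoclast genes. The inhibitory neuron, immediate early, myelin and choroid plexus lists had 0 higher members with limma voom. Counts under 1 to 3 reads in a group limit the fold changes of genes that cortex controls hardly express.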
